A study of Mus musculus with 38 samples.

Results

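Ramp1, Ramp2, Ramp3 and Calcrl encode the receptor activity-modifying proteins and the calcitonin receptor-like receptor, and they were followed through the RNA-seq, ChIP-seq and DNA methylation data of neural stem and progenitor cells (NSPCs) from young adult and aged mice. The 4 genes were taken by symbol and are 4 of the 25965 genes in the RNA table and 14 of the 72923 promoter windows in the ChIP table. Ramp1 has 1 window, Ramp2 has 8, Ramp3 has 2 and Calcrl has 3. Each window is 5 kb long and centred on an annotated transcription start site (TSS), so the windows of one gene overlap and are not independent, except that Calcrl-201 lies within the gene and far from the other 2 Calcrl windows. The members were chosen by family, once the RNA and H3K4me3 values of Ramp1 in this contrast were known, so those 2 measures are given below as a description and carry no test. H3K27me3, DNA methylation and the C57BL/10 libraries did not enter the choice.

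NSPCs were derived from the subventricular zone (SVZ) of male C57BL/6JBabr mice aged 3 months (young adult) or 18 months (aged), carried no transgene or treatment, and were grown as neurospheres into the second passage. SVZ tissue of several mice was pooled for each derivation, and each age had 3 derivations made on different days, so the spread between replicates is a spread between pooled cultures and the cells had left their niche. RNA-seq, native ChIP-seq (H3K4me3, H3K27me3 and Input), bisulfite sequencing (BS-seq) and oxidative bisulfite sequencing (oxBS-seq) had 3 libraries per age, and RNA-seq had a further pair from C57BL/10 mice of another facility with 1 library at 3 months and 1 at 18 months. The 8 RNA libraries held 16952486 to 41053972 reads, the BS libraries 23121086 to 30400033 calls and the oxBS libraries 13616283 to 21389132 calls, with only 1.20 to 1.48 calls at a covered CpG position, so single CpGs could not be compared and calls were summed over regions. Among NSPC markers, Nes stood at 10.43 log2 RPM (reads-per-million) in young adult and 10.42 in aged libraries, Sox2 at 7.01 and 7.13, Egfr at 7.96 and 8.13, Mki67 at 7.69 and 7.79, Fabp7 at 10.9 and 10.7, Vim at 11.8 and 11.6, and Prom1 at 2.91 and 2.65. Markers of endothelium, a tissue known for adrenomedullin receptors, summed to 12.03 to 23.4 RPM in young adult and 11.5 to 19.2 RPM in aged libraries over 8 genes. Over the 6 C57BL/6JBabr libraries Flt1 had 2744 reads, Kdr 436, Pecam1 52, Emcn 41, Tek 21, Cldn5 4, and Cdh5 and Tie1 2 each. Astrocyte markers summed to 1996 to 2344 RPM in young adult and 1787 to 1985 RPM in aged libraries over 7 genes, of which 6 had a lower mean in aged libraries. Among them Gfap was lower in all aged than in all young adult libraries (7.16 ± 0.18 against 6.61 ± 0.33 log2 RPM, SD, n = 3, adjusted p = 1.00 in limma, named after its values were seen). Their part in the results below was not tested.

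Calcrl is a class B G protein-coupled receptor that needs a single-pass RAMP partner to reach the cell surface and to bind peptide. With RAMP1 it forms the receptor for calcitonin gene-related peptide (CGRP), and with RAMP2 or RAMP3 it forms receptors for adrenomedullin. Both couple mainly to the stimulatory G protein and raise cAMP, and they are best known in blood vessels and in sensory nerves. The RAMP present in a cell therefore decides which peptide Calcrl binds.

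The promoters of 3 of the 4 genes are shown because the histone and methylation values below were measured around them. Each sequence runs from 250 bases before to 50 bases after the gene start in RefSeq on GRCm38.p6, 5′ to 3′ along the gene, with CpG dinucleotides, the positions that BS-seq and oxBS-seq read, in capitals. They lie at chr1:91179572-91179871 on the + strand (Ramp1), chr11:6658283-6658582 on the + strand (Ramp3) and chr2:84425217-84425516 on the - strand (Calcrl). Ramp2 was not among the sequences used here.
Ramp1: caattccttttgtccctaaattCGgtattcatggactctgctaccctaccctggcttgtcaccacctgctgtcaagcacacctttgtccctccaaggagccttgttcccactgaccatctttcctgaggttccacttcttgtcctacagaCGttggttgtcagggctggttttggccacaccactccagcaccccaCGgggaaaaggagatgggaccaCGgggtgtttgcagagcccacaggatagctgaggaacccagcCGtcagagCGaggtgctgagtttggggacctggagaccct
Ramp3: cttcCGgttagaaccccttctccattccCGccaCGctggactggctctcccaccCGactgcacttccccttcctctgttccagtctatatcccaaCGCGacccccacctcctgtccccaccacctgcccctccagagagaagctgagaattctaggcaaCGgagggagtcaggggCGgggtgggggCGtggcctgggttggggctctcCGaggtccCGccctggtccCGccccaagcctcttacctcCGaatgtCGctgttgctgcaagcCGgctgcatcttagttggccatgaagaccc
Calcrl: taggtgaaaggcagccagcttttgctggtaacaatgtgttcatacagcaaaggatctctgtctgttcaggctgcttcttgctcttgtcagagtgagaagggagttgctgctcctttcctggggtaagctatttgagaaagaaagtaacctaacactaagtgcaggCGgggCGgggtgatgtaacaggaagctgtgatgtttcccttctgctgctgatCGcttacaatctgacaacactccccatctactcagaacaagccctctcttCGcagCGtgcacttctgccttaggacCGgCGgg

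The 3 promoters differed in CpG content. Ramp3 held 15 CpGs in 300 bases with a G+C content of 63.7%, above 65.4% of the 32851 promoters in the RefSeq table, whose median was 7 CpGs. Calcrl held 7 CpGs with 50.7% G+C, and Ramp1 held 6 with 55.7% G+C. The ratio of observed to expected CpGs was 0.51 for Ramp3, 0.36 for Calcrl and 0.26 for Ramp1. The full cAMP response element TGACGTCA, read on both strands, was in none of the 3 windows and in 1.79% of all promoters. Its shorter form TGACG, which overlaps the full element, had 1 match in Ramp1 and none in Ramp3 or Calcrl, against 20.8% of all promoters with a match. The GC box GGGCGG had 3 matches in Ramp3, 1 in Calcrl and none in Ramp1, and was found in 35.7% of all promoters. TATAAA was in none of the 3 and in 13.6% of all promoters.

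Ramp1 RNA, the CGRP-specifying partner, was low to moderate in these cells and higher in the aged library of every replicate number. On the log2 RPM scale of the deposited table, young adult replicates 1, 2 and 3 stood at 2.68, 2.99 and 3.70, and aged replicates 1, 2 and 3 at 3.33, 3.56 and 4.35. These levels rested on 263, 135 and 339 reads in young adult and on 403, 327 and 807 reads in aged libraries. The groups overlapped, since young adult replicate 3 lay above aged replicates 1 and 2. Means were 3.12 ± 0.52 and 3.75 ± 0.54 (SD, n = 3), a difference of 0.63 or 1.54-fold, which is about as large as the spread within an age. Within a replicate number the aged library was higher by 0.65, 0.57 and 0.65, with an SD of 0.049 between the 3 differences. Of all 14858 genes tested, 15.9% were higher in aged for all 3 numbers, and the contrast was among the values known when Ramp1 was picked. The difference between group means was 0.32 without aged replicate 3 and 0.91 without young adult replicate 3, with the same sign. Ramp1 stood highest in number 3 at both ages, and each of these fits leaves a library without its same-numbered partner. They therefore do not measure the spread of the differences within a number.

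**Figure D1:**
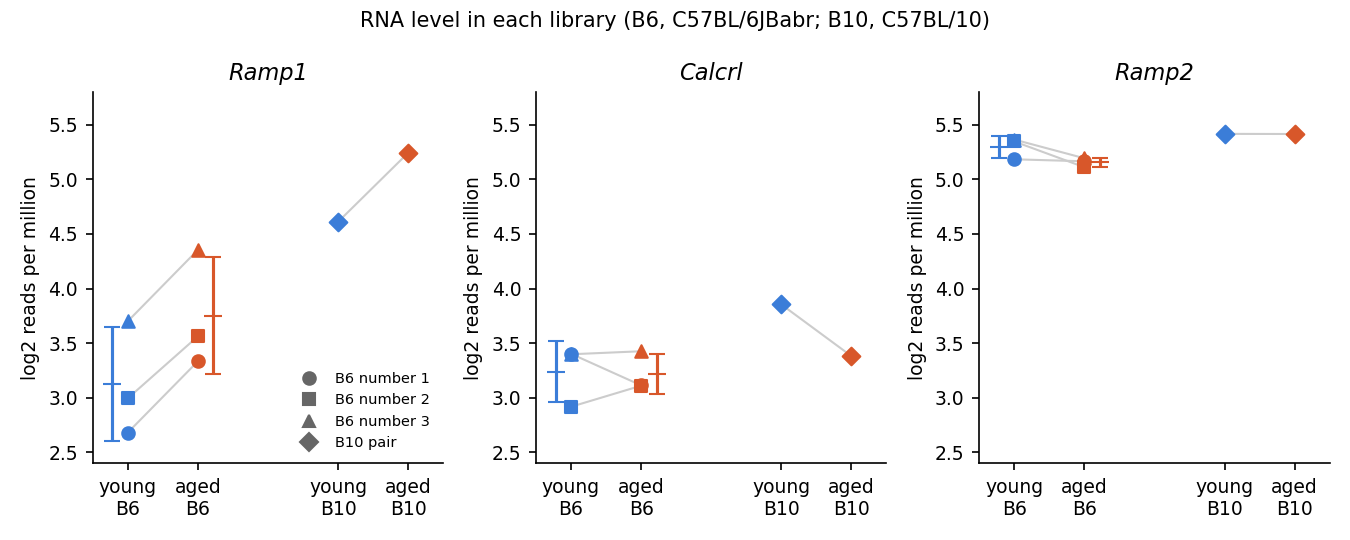
RNA level (log2 RPM, vertical axis) of Ramp1, Calcrl and Ramp2 in each young adult (blue) and aged (orange) library, with grey lines joining libraries of the same replicate number or of the C57BL/10 pair and bars giving mean ± SD of 3 libraries. Ramp1 is higher at the aged end of all 4 lines (2.68, 2.99, 3.70 and 4.61 against 3.33, 3.56, 4.35 and 5.24), Calcrl lines point both ways, and Ramp2 lines are flat or slightly lower at the aged end.

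The C57BL/10 pair gave a difference of nearly the same size at a higher level. Ramp1 stood at 4.61 (664 reads) in the young adult library and at 5.24 (931 reads) in the aged library, a difference of 0.63 or 1.55-fold. Both C57BL/10 levels were above all 6 C57BL/6JBabr levels. There was 1 library per age, so this difference has no replicate check, and 5.16% of genes were at least 1.5-fold higher in the aged library of this pair.

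Calcrl RNA, the receptor that all 3 RAMPs serve, was as low as Ramp1 and did not separate by age. Young adult replicates stood at 3.40, 2.92 and 3.40 log2 RPM and aged replicates at 3.11, 3.11 and 3.43, from 128 to 434 reads per library. The highest and the lowest library of the 6 were aged replicate 3 and young adult replicate 2, so the young adult range contained aged replicates 1 and 2. Means were 3.24 ± 0.28 and 3.22 ± 0.18 (SD, n = 3), a difference of -0.02. Leaving out single libraries moved the difference between -0.18 and 0.06. In the C57BL/10 pair Calcrl was lower in the aged library, 3.85 (393 reads) against 3.38 (256 reads), a difference of -0.47 without replicates. That is short of 1.5-fold, a size that 10.2% of genes passed in either direction in this pair.

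Ramp2, the adrenomedullin-specifying partner, could not be read from its deposited RNA value, which followed that of a neighbouring gene with shared exons. The labels and methods read here do not say how reads in the shared exons were counted, so that reads were assigned to both genes is an inference from the values below. The gene model of Ramp2 (chr11:101246028-101259546) contains the transcript Ramp2-203, whose exons share 1103 bases with those of Vps25 (chr11:101253707-101259549), an ESCRT-II subunit gene on the same strand. That is 67.2% of the exon bases of Vps25. Ramp2 had 1492, 690 and 1075 reads in young adult and 1435, 957 and 1444 in aged libraries, and Vps25 had 1399, 653 and 1013 and then 1347, 897 and 1352. The Vps25 count thus equalled 91.5 to 95.6% of the Ramp2 count over the 8 libraries. Over those libraries r between the 2 log2 RPM values was 0.99, and the 2 values may hold the same reads. As deposited, Ramp2 stood at 5.18, 5.35 and 5.36 log2 RPM in young adult and at 5.17, 5.11 and 5.19 in aged libraries, a difference of -0.14. Vps25 differed by -0.15. RNA of Ramp2 and of Vps25 cannot be told apart in these values.

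With all Vps25 reads subtracted, the reads left to Ramp2 differed between ages by less than their spread. Vps25 also has exon bases outside Ramp2, and its reads there need not have been assigned to Ramp2, so the excess is a lower bound on the reads of Ramp2 outside Vps25. The excess was 93, 37 and 62 reads in young adult and 88, 60 and 92 reads in aged libraries. In RPM this was 2.27, 2.18 and 2.38 in young adult and 2.20, 2.17 and 2.33 in aged libraries. Means were 2.27 ± 0.097 and 2.23 ± 0.087 RPM (SD, n = 3), and the difference in log2 RPM was -0.03. A difference between 2 lower bounds does not bound the difference in Ramp2 RNA. The subtraction was chosen after seeing the data. In the C57BL/10 pair the excess was 51 reads at 3 months and 89 at 18 months, or 1.88 and 3.62 RPM.

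**Figure D2:**
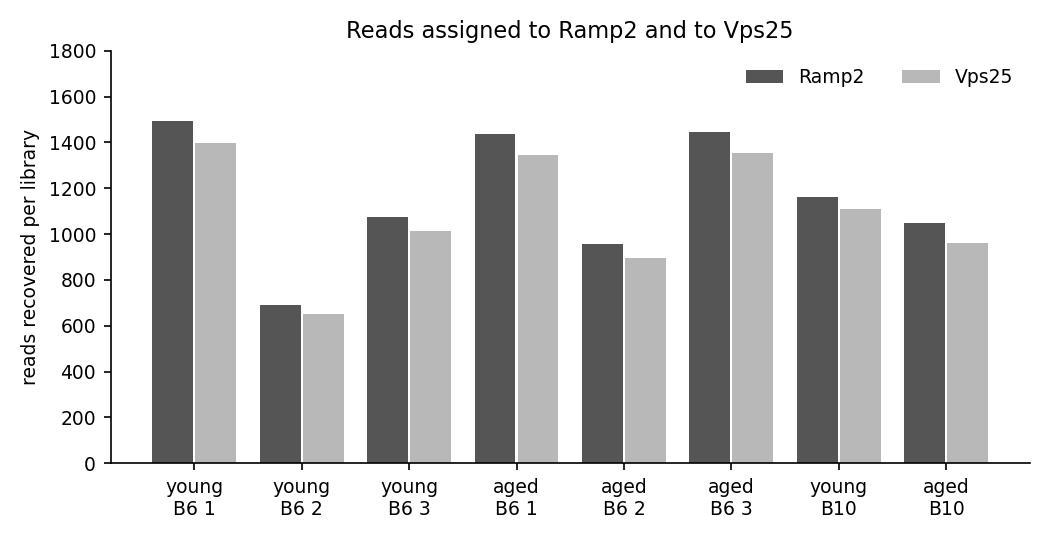
Reads per library (vertical axis) assigned to Ramp2 (dark bars) and Vps25 (light bars) in the 6 C57BL/6JBabr (B6, with replicate number) and 2 C57BL/10 (B10) libraries. The 2 bars have nearly the same height in every library, and Ramp2 exceeds Vps25 by 37 to 93 reads.

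Ramp3, the other adrenomedullin-specifying partner, was close to undetected. It had 1, 3 and 1 reads in young adult libraries, 3, 1 and 2 reads in aged libraries, and 4 and 2 reads in the young adult and aged C57BL/10 libraries. A floor of 3 reads corresponds to 0.073 to 0.18 RPM in these libraries, so 7 of the 8 values were at or under it and no fold is given. Intervals and floors here cover counting error only.

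Per exon length Ramp1 stood above Calcrl on average and Ramp3 far below both, while Ramp2 could not be placed because of the reads it may share with Vps25. On the scale of log2 RPKM (RPM per kilobase of exon), Ramp1 stood at 1.53 ± 0.52 in young adult and 2.15 ± 0.54 in aged libraries, and Calcrl at 0.95 ± 0.28 and 0.93 ± 0.18 (SD, n = 3). In young adult libraries the 2 genes overlapped, with Ramp1 from 1.08 to 2.10 and Calcrl from 0.63 to 1.11. Lengths were exon unions over all annotated transcripts, 3022 bases for Ramp1 and 4882 for Calcrl, which need not be the transcripts expressed. Before division by length, Ramp1 was at 3.12 and Calcrl at 3.24 log2 RPM in young adult, and at 3.75 and 3.22 in aged libraries. In aged libraries every Ramp1 value, from 1.74 to 2.76, was above every Calcrl value, from 0.82 to 1.14. The value deposited for Ramp2, which may hold reads of Vps25, was 3.58 ± 0.10 and 3.43 ± 0.042 (SD, n = 3). Averaged over the 6 libraries, Ramp1 was above 68.3% and Calcrl above 60.1% of the 25035 genes with a length, and Ramp3 above 30.6%.

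Of the ligands only Adm was well detected, and of the other receptors and partners only Calcr was close to 0. Adm, which encodes adrenomedullin, was the only ligand tested, at 4.55 ± 0.35 log2 RPM in young adult and 4.68 ± 0.26 in aged libraries (SD, n = 3), a difference of 0.13. The CGRP genes Calca and Calcb had 28 and 2 reads in all 6 libraries together, Adm2 (intermedin) had 3, and Iapp (amylin) had 0. The calcitonin receptor Calcr had 4 reads. Crcp, an intracellular component linked to CGRP receptor signalling, stood at 4.09 ± 0.069 and 3.99 ± 0.18, and Gpr182, a receptor of endothelium once put forward as an adrenomedullin receptor, at -0.75 ± 0.73 and -0.51 ± 0.60. None of Adm, Crcp and Gpr182 differed between ages beyond the spread (adjusted p = 1.00 for each, limma).

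Over the whole pathway, 46 of the 64 listed genes in the table reached the mean log2 RPM of -2 needed for the test, and 0 were called by limma at an adjusted p under 0.05. In all 14858 genes the same test called 0%. In limma an unadjusted p under 0.05 was reached by 2 of the 46 and by 1.74% of all genes. With replicate number in the model it was reached by 4 of the 46 and by 1229 of all 14858 genes. On the recovered reads edgeR and DESeq2 also called 0 of the 46, against 0% and 0.0269% of all genes. The median difference was -0.01 over the 46 and 0.00 over all genes tested. In aged libraries 20 of the 46 had a higher mean, against 7512 of all 14858 genes. The other class B receptors were led by Adcyap1r1, the PACAP receptor, at 7.28 ± 0.15 and 7.42 ± 0.14 log2 RPM (SD, n = 3). Of the genes of cAMP production and breakdown 12 of 14 were tested, and of the protein kinase A and CREB genes 12 of 12, with median differences of -0.0017 and -0.03. Gnas, the stimulatory G protein subunit, stood at 9.40 in both ages.

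One gene of the lists, Cxcr7 (Ackr3), a chemokine scavenging receptor that also binds adrenomedullin, was called once replicate number was in the model. It stood at 1.83 ± 0.40 log2 RPM in young adult and 2.78 ± 0.60 in aged libraries (SD, n = 3), a difference of 0.94, and the 3 numbers gave 1.23, 0.71 and 0.89. All 3 aged values were above all 3 young adult values, which 5.2% of genes showed in one direction or the other. The adjusted p was 1.00 in limma without and 0.022 in limma with the replicate block, under which 1 of the 46 pathway genes and 0.498% of all genes were called. In the C57BL/10 pair Cxcr7 was 1.37 higher in the aged library.

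Genes whose level followed that of the members over the 8 RNA libraries were listed by Pearson correlation among 13249 genes. The list is a description, since the 8 libraries differ in age, strain and depth, and these differences enter r. Ramp1 was most like Gm16054 (r = 0.988), Dbndd1 (0.986), Pcdhb3 (0.985), Rab6a (0.984) and Cnrip1 (0.981). Calcrl was most like Pyroxd1 (0.981), mt-Nd6 (0.971), Tor1aip2 (0.970), St8sia4 (0.970) and Fam36a (0.970). Ramp2 was most like Vps25 (0.990), followed by Atpaf2, Drap1, 2610507I01Rik and Aup1 at 0.970, 0.964, 0.964 and 0.962.

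The promoter windows carried 3 combinations of histone marks (H3K4me3 alone, both marks, or neither), and each window had the same combination at both ages. H3K4me3 marks active or poised promoters, and H3K27me3 is laid down by Polycomb repressive complex 2. The ChIP table gives 1 value per mark and age, made by the authors from 3 libraries, so there is no spread and no test. Values are log2 RPM, and a level above 1 in an age was asked of a window before a fold was counted.

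At Ramp1-202 (chr1:91177322-91182322) H3K4me3 was 3.10 in young adult and 3.78 in aged NSPCs, and H3K27me3 was 0.14 and 0.69, below the level of 1 at both ages. Input was 0.94 and 1.19. The H3K4me3 difference of 0.68, or 1.61-fold, was among the values used to choose Ramp1. The median H3K4me3 difference over all 43646 windows above the level was 0.21, and relative to it Ramp1 was higher by 0.47. With Input of the same age subtracted, the Ramp1 difference was 0.44, no longer 1.5-fold. Ramp1-202 was the only one of the 14 windows at least 1.5-fold higher in H3K4me3, against 0.0802% of all windows above the level, and none was 1.5-fold lower at that level, against 0.261%.

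At Calcrl the 2 windows at the gene start, Calcrl-001 (chr2:84422911-84427911) and Calcrl-002 (chr2:84422766-84427766), carried H3K4me3 without H3K27me3. H3K4me3 was 4.46 in young adult and 4.41 and 4.42 in aged NSPCs. H3K27me3 was 0.20 and 0.17 in young adult and -0.34 and -0.45 in aged NSPCs, all below Input of the same age. The window inside the gene, Calcrl-201 (chr2:84372858-84377858), was unmarked, with H3K4me3 at -0.38 and -1.51 and H3K27me3 at -0.36 and -1.59. These are levels below Input, which stood at 0.41 and 0.87, so the fall in both tracks is a difference between 2 low values.

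Ramp3 carried both marks at a gene with almost no RNA. At Ramp3-001 (chr11:6656021-6661021) H3K4me3 was 3.23 in young adult and 3.36 in aged NSPCs, and H3K27me3 was 3.29 and 3.38. In rank over all windows H3K4me3 was near the middle, above 48.0%, and H3K27me3 was high, above 94.9%. Ramp3-002 (chr11:6656065-6661065) gave H3K4me3 of 3.23 and 3.36 and H3K27me3 of 3.27 and 3.37. Input was unusually high there, at 1.85 and 1.47 in Ramp3-001, above 99.4% of windows. Over Input, H3K4me3 was 1.37 and 1.89 and H3K27me3 was 1.43 and 1.91, and the differences between ages were then 0.51 and 0.48. Input itself differed by -0.39 between ages, and its part in those 2 differences was not tested.

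The 8 Ramp2 windows (chr11:101243528-101249593 in all) had both marks above the level of 1. Input was 0.81 to 0.92 in young adult and 1.06 to 1.17 in aged NSPCs, so aged Input passed that level too. H3K4me3, above 53.8 to 53.9% of all windows, ranged from 4.16 to 4.17 in young adult NSPCs and was 4.47 in all 8 windows in aged NSPCs, with differences from 0.29 to 0.31. Relative to the median difference over all windows above the level, Ramp2 was higher by only 0.08 to 0.10. With Input of the same age subtracted, the H3K4me3 differences were 0.02 to 0.07. H3K27me3 ranged from 1.88 to 2.33 in young adult and from 1.64 to 2.20 in aged NSPCs, above 83.6 to 88.9% of windows, with differences from -0.24 to -0.12. Over Input, H3K27me3 ranged from 0.97 to 1.45 in young adult and from 0.47 to 1.10 in aged NSPCs, with differences from -0.49 to -0.35. The highest H3K27me3 was at Ramp2-001, the most 5′ window, and the lowest at Ramp2-003, the most 3′ one. No TSS of another gene lay in any member window, so that of Vps25 was outside those of Ramp2. Both marks above the level of 1 in young adult NSPCs were found in all 8 Ramp2 windows, both Ramp3 windows, no window of Ramp1 or Calcrl and 16.2% of all windows. In H3K27me3, 0 of the 10 member windows above the level were past 1.5-fold, against 1.9% of windows higher and 2.37% lower in aged NSPCs.

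**Figure D3:**
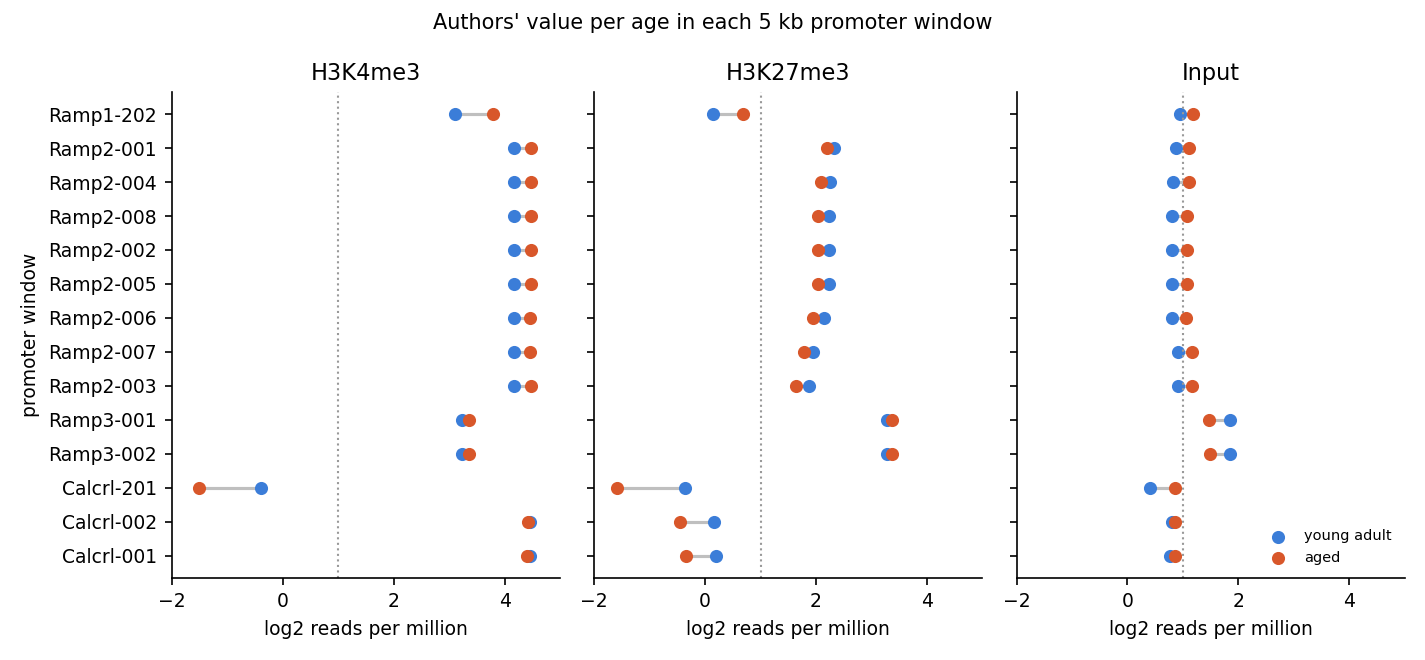
H3K4me3, H3K27me3 and Input (log2 RPM, horizontal axes) in the 14 promoter windows, with 1 authors' value for young adult (blue) and aged (orange) NSPCs and a dotted line at the level of 1. Ramp1-202 has the widest H3K4me3 step above the line (3.10 to 3.78), Ramp3 is right of the line in both marks, and Calcrl-201 lies left of the line in both.

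DNA methylation was read at CpGs by oxBS-seq, which sees 5-methylcytosine (5mC), and by BS-seq, which sees 5mC and 5-hydroxymethylcytosine (5hmC) together. The 4 genes each had a dip in methylation at the gene start, of different width and depth. In the 500 bp after the start, pooled oxBS methylation at Ramp2 was 0% of 136 calls in young adult, which allows up to 2.68% by an exact binomial interval, and 1.0% of 100 calls in aged NSPCs. At Ramp3 it was 13.6% of 22 calls and 4.35% of 23 calls, and 8.33% of 36 calls and 7.50% of 40 calls in the 500 bp before the start. The bins count from the start in the RNA table, which for Calcrl is 145 bases upstream of the RefSeq start used for the printed promoter (12 bases for Ramp3, 0 for Ramp1). At Calcrl the bin after that start was low, with 15.2% of 33 and 4.00% of 25 calls, and the 500 bp before it had 57.1% of 14 and 78.6% of 14 calls. Ramp1 was low on both sides of the start, with 21.7% of 60 and 8.49% of 106 calls after it and 21.1% of 19 and 16.7% of 24 calls before it. It was lower still between 2000 and 2500 bp, with 9.62% of 52 and 2.63% of 38 calls. Between 500 and 2000 bp the bins stood higher, at 43.3, 29.4 and 40.9% in young adult and 22.2, 16.7 and 21.2% in aged NSPCs. Those bins held 17 to 30 young adult and 6 to 33 aged calls.

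In the printed 300-base promoters coverage was thin. Pooled oxBS calls were methylated in 3 of 14 (young adult) and 4 of 25 (aged) calls at Ramp1, in 1 of 21 and 1 of 36 at Ramp3, and in 0 of 8 and 0 of 12 at Calcrl. The exact 95% intervals at Ramp1 ran from 4.66 to 50.8% and from 4.54 to 36.1%, and no difference was detectable at this depth.

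With calls summed over it, the Ramp1 window was less methylated in aged NSPCs by both assays, but the difference did not pass the test over all windows. In oxBS libraries young adult replicates stood at 36.1, 39.8 and 51.1% and aged replicates at 42.5, 22.9 and 20.4%, each from 86 to 120 calls. In BS libraries young adult replicates stood at 45.2, 39.6 and 41.8% and aged replicates at 40.7, 25.4 and 29.7%, each from 96 to 194 calls. In both assays aged replicate 1 lay within the young adult range and aged replicates 2 and 3 lay below it, so the groups overlapped. Means were 42.3 ± 7.83% and 28.6 ± 12.1% in oxBS, and 42.2 ± 2.84% and 31.9 ± 7.93% in BS (SD, n = 3). With calls pooled over an age, the difference was -12.9 percentage points in oxBS (quasi-binomial model over all windows, p = 0.0593, adjusted p = 0.94) and -10.9 points in BS (quasi-binomial model over all windows, p = 0.0274, adjusted p = 1.00). Of all windows, 5.29% in oxBS and 4.86% in BS had an unadjusted p under 0.05. Replicate numbers do not say whether the BS and oxBS libraries came from the same cultures, so the 2 assays are not taken as independent.

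This difference depended on how calls were handled. A chi-squared test on pooled calls, which leaves out the spread between libraries, gave adjusted p = 0.0289 in oxBS and 0.0249 in BS and called 3.11% and 2.52% of all windows. Without aged replicate 1 the difference was -20.6 points in oxBS and -14.7 in BS, and without young adult replicate 3 it was -8.73 points in oxBS. The CpGs covered also differed between ages, with 106 aged and 60 young adult oxBS calls in the low 500 bp after the start. Compared within 500 bp bins, an alternative chosen after seeing the data, the difference was -12.5 points in oxBS, with 9 of 10 bins lower in aged, and -3.71 points in BS, with 4 of 10 bins lower and 5 higher. Where calls fell along the window therefore moved the BS value from -10.9 to -3.71 points, and the oxBS value little.

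**Figure D4:**
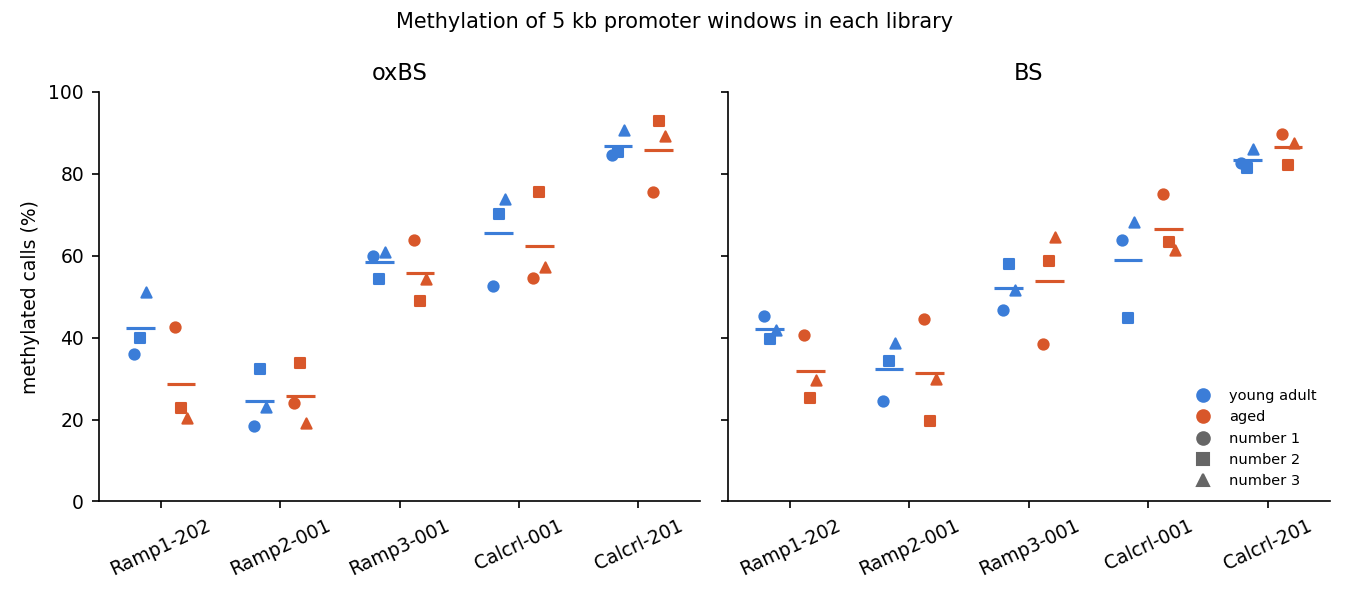
Methylated calls (%, vertical axis) in 5 promoter windows in each oxBS (left) and BS (right) library of young adult (blue) and aged (orange) NSPCs, with symbols for replicate numbers and a line at the mean of 3. At Ramp1-202 aged replicates 2 and 3 (22.9 and 20.4% in oxBS, 25.4 and 29.7% in BS) lie below all young adult values, and aged replicate 1 lies among them.

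A call asked for a difference of 10 points besides an adjusted p under 0.05, and it was made at 0 of the 14 member windows in oxBS and 0 in BS, as at 0% of 69710 oxBS and 0% of 71037 BS windows. An unadjusted p under 0.05 was reached by 0 of the 14 in oxBS and by 1, Ramp1-202, in BS. The other 3 genes had differences of opposite sign in the 2 assays when calls were summed over the window. These signs depended on single libraries. In oxBS, Ramp2-001 turned to -1.55 points without young adult replicate 1, and Ramp3-001 to 1.75 points without aged replicate 2. Compared within 500 bp bins, the differences in oxBS and BS were 2.73 and -0.82 points at Ramp2-001, -4.35 and 3.80 points at Calcrl-001, and -2.29 and -4.11 points at Ramp3-001, where BS thus turned to the sign of oxBS. At Ramp2 the 8 windows had mean oxBS levels of 23.4 to 25.3% in young adult and 25.7 to 29.2% in aged libraries, and pooled differences from 1.82 to 4.01 points in oxBS and from -4.68 to -1.21 in BS. In 1 kb around each Ramp2 TSS, oxBS differences ran from 0.07 points at Ramp2-008 to 15.05 at Ramp2-003. The latter did not pass the quasi-binomial test (p = 0.121, adjusted p = 0.981). At Ramp3-001 oxBS libraries stood at 60.0, 54.4 and 60.9% in young adult and 63.9, 48.9 and 54.2% in aged, a difference of -2.36 points, and BS gave 1.09 points. At Calcrl-001 oxBS libraries stood at 52.5, 70.2 and 73.9% and at 54.6, 75.6 and 57.1%, a difference of -5.87 points, and BS gave 6.11 points. The oxBS difference at Calcrl-001 was -11.75 points without aged replicate 2 and -0.63 without young adult replicate 3. In 1 kb around its TSS, BS gave -5.16 points. Calcrl-201 was highly methylated, at 86.9 ± 3.34% and 85.9 ± 9.07% in oxBS (SD, n = 3), above 94.6% of all windows.

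Gene bodies outside the promoter windows of the same gene were methylated at different levels in the 4 members, and no difference between ages passed the test. Ramp1 stood at 75.4 ± 2.75% and 75.2 ± 1.33% in oxBS, Ramp3 at 70.1 ± 2.21% and 72.2 ± 1.99%, and Calcrl at 80.6 ± 4.07% and 78.5 ± 2.98% (SD, n = 3). The region taken as the Ramp2 body was lower at 37.5 ± 7.10% and 42.6 ± 6.21%, above only 2.25% of gene bodies. It runs into Vps25 and holds the start of that gene (chr11:101253707), so this level and rank are not those of Ramp2 alone. None of the 4 was called, nor was any of 17775 gene bodies (0%), and the unadjusted p of the members ranged from 0.162 to 0.937 in the quasi-binomial model over all bodies.

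Hydroxymethylation, taken as BS minus oxBS percent within a replicate number over the union of a gene's windows, was not detectable at this depth. Ramp1 gave 9.18, -0.23 and -9.33 points in young adult and -1.76, 2.50 and 9.32 points in aged samples. Values below 0 have no physical meaning, and the values of each age lay on both sides of 0. Mean differences between ages were 3.48 points at Ramp1, -2.96 at Ramp2, 4.20 at Ramp3 and 7.45 at Calcrl, with p from 0.6 to 0.9 in the two-sided exact permutation test and an adjusted p of 0.9 over the 4 genes for each. With 3 against 3 the smallest p this test allows is 0.1.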

How the data were processed

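RNA-seq, native ChIP-seq, BS-seq and oxBS-seq data of NSPCs were analysed as deposited on GRCm38. The submitters' processing notes name Trim Galore 0.4 and 0.3.7, Bowtie2 2.2.5, STAR 2.3.0 and Bismark 0.12.5, and no source used here names the read counter. The authors deposited log2 RPM per gene and library (RNA) and log2 RPM per 5 kb window, mark and age (ChIP, 1 value from 3 libraries). The deposited methylation files hold counts of methylated and unmethylated calls per CpG with the percent methylated.

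Members, lists and alternatives were chosen with earlier results of these data known. Named by rule were all members, the ligands, Calcr, Crcp and Cxcr7, and listed genes called with or without the replicate block or differing by 0.5 or more. The rule also named the 5 genes most correlated with a member and defining endothelial and NSPC markers (not all are reported here). Gpr182 was named outside that rule, and Adcyap1r1, Gnas, Gfap and Vps25 were chosen after their values were seen. Values of 1 read or more were whole multiples of 1 read within 0.02 reads, and reads were recovered from them.

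Ages were compared with limma 3.58.1 (R 4.3.3, mean log2 RPM of at least -2, Benjamini-Hochberg adjustment at 0.05), with edgeR 4.0.16 and DESeq2 1.42.0 on recovered reads as alternatives. Methylation calls were summed per window, gene body or bin and compared with a quasi-binomial model over all windows with 10 or more calls in every library. Other alternatives were quantile normalization, a prior of 2 reads, other filters, 1 kb windows, Input subtraction, another fold and leaving out each library. Exon lengths and gene bodies came from GENCODE vM21. In RNA, same-numbered libraries shifted together from their group means (correlations of 0.73, 0.201 and 0.83 over 13280 genes), so the blocked value is given where it changed a call. The labels name separate derivations without tying BS, oxBS and RNA libraries of a number to the same one.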

Additional observations from a re-analysis of the deposited data

How the results depend on the processing

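With the replicate block in RNA, 1 pathway gene was called in place of 0 (0.498% of all genes in place of 0%). A block cannot move a mean difference over 3 complete pairs, so the differences stay at 0.63, -0.14 and -0.02 for Ramp1, Ramp2 and Calcrl by construction. Over the leave-one-out fits the Ramp1 difference ran from 0.32 to 0.91, Ramp2 from -0.20 to -0.11 and Calcrl from -0.18 to 0.06, and none is given for Ramp3 because of its few reads. Each such fit leaves a library without its same-numbered partner, so these ranges also hold differences between replicate numbers. With all Vps25 reads subtracted, the excess left differed between ages by -0.027. That is a difference between 2 lower bounds and does not bound the difference in Ramp2 RNA. In methylation, same-numbered libraries hardly shifted together over windows and gene bodies (correlations from -0.00668 to 0.0612). Counting error at this depth enters these correlations, so they cannot tell whether more than a number was shared. Percent methylated over all calls rose from number 1 to number 3 at both ages in both assays (oxBS 70.5, 70.8 and 71.8 in young adult, 70.8, 71.3 and 71.9 in aged). With the replicate block 0 of 14 windows in oxBS, 0 of 14 in BS and 0 of 4 gene bodies were called, as were 0% of all windows and bodies. Within 500 bp bins the BS difference at Ramp3-001 turned from 1.09 to -4.11 points. Pooling the calls of an age in a chi-squared test called 1 window, Ramp1-202, in each assay. For 5hmC the leave-one-out range was -1.12 to 8.14 points at Ramp1, -8.68 to 4.32 at Ramp2, -2.03 to 16.4 at Ramp3 and -1.26 to 15.2 at Calcrl, and with 1 kb around each TSS Calcrl gave -5.49. With the replicate block the 5hmC differences (3.48, -2.96, 4.20 and 7.45) likewise cannot move, and exact paired p ran from 0.25 to 0.75, where 0.25 is the smallest possible. For H3K4me3, 0 member windows passed with Input subtracted (5.01% of all windows), 0 at 2-fold (0.0619%) and 2 of 14 without a minimum level (14.7%), and for H3K27me3 2 of 14 passed without a minimum level (19.04%). The cause of these changes was not tested, except that they follow from the rule itself where the fold or level was changed. With 1.20 to 1.48 calls per covered CpG, differences at single CpGs could not be measured.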
